A study of Mus musculus with 8 samples.

Results

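The loci described here hold 7 genes that enterocytes use to digest food and to package fat: Vil1, Sis, Lct, Fabp1, Apob, Apoa1 and Apoa4. Members were the MBD peaks that overlapped 6 fixed mm9 intervals around these genes, with Apoa1 and Apoa4 sharing an interval. Peaks of the 8 libraries were merged wherever they shared at least 1 bp, which gave 129 regions in the 6 intervals out of 475861 in the genome. DNA methylation had been profiled by MBD sequencing, in which a methyl-CpG-binding domain protein captures methylated fragments before sequencing, and each library was deposited as a list of peaks. The 4 groups had 2 biological replicates each. Embryonic epithelium was taken at E12.5 and at E14.5, in embryonic days, and sorted for EpCAM without CD31 or CD45. The adult groups, at postnatal day 60, were enterocytes and stem cells (ISC), the latter taken by their high EGFP signal from Lgr5 and the former sorted for EpCAM without CD31 or CD45. Both adult groups came from Lgr5EGFP-Cre-ERT males. The strain was mixed C57BL/6 CD1 and the tissue small intestine in all groups. The sex and genotype of the embryos are not given in the labels. The gate for enterocytes used no marker that separates absorptive cells from other EpCAM-positive epithelium, and the protocol does not say whether the villus or the crypt fraction was sorted for them. Peaks of DNA hold no expression against which the sorted cell types could be checked.

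Enterocytes line the villi and absorb nutrients through a brush border of microvilli. Villin, the product of Vil1, bundles the actin of the microvilli, while sucrase-isomaltase (Sis) and lactase (Lct) are disaccharidases held in the brush border membrane. Fatty acids taken up by the cell are bound by the liver-type fatty acid-binding protein (Fabp1) and are exported in lipoprotein particles built on apolipoprotein B (Apob), with apolipoproteins A-I and A-IV (Apoa1, Apoa4) on their surface. Methylation of CpG sites near a promoter or enhancer is often lower in a cell type that uses the gene, and gene bodies are often methylated whether the gene is used or not.

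Capture by the MBD protein needs methylated CpGs, so the CpG content of a stretch limits the signal it can give. The 250 bases before the gene start are shown for the genes of the intervals in which peaks were absent from enterocytes in a repeated pattern (Vil1, Fabp1) and of the interval with the fewest peaks (Sis). They are from RefSeq on GRCm38.p6, read 5′ to 3′ on the strand of the gene, with each CG in capitals. Because the peaks are on mm9, whether a peak lay over these bases was not analysed here.
Vil1: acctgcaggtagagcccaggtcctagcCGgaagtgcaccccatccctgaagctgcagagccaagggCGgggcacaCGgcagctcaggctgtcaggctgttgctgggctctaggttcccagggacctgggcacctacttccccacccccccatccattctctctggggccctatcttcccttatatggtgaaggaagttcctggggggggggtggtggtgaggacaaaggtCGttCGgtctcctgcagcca
Fabp1: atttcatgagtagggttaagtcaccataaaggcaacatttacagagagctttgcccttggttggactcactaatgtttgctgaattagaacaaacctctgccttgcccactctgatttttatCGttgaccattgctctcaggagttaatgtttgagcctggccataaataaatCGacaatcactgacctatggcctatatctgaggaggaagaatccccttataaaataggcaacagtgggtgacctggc
Sis: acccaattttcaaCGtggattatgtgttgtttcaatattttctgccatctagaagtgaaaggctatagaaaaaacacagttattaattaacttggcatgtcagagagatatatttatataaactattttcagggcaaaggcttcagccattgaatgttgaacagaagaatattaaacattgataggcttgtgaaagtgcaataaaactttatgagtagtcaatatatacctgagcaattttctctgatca

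The motif CG, which reads the same on both strands, occurred 5 times before Vil1, 2 times before Fabp1 and 1 time each before Sis, Lct and Apoa4. It occurred 4 times before Apoa1 and 7 times before Apob. Of 32851 RefSeq promoters of the same length, 92.1% held at least 1 CG and the median number was 6. With 1 CG or none, Sis, Lct and Apoa4 were among the 18.8% of promoters with the fewest, and Apob alone of the 7 was above the median. All 7 genes were matched by symbol. In the RefSeq gene order Apoa1 and Apoa4 are separated by Apoc3 and followed by Apoa5, further apolipoprotein genes.

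Total depth was 31438314 to 55442400 tags per library, and the lists held 84990 to 338262 peaks. The E12.5 libraries were the deepest but had only 7.46% and 9.84% of their tags in peaks, against 23.8% to 38.9% in the other 6 libraries. A library is said to be called at a region when its list has a peak there. Where a peak is missing, the signal was under the threshold of the caller, and methylation may still be present. Levels are given as RPM, the tags of a library's peaks in a region per 1000000 tags of its total, and such levels can be compared between libraries only as far as the peaks were called alike. Among the peaks of the 6 intervals the weakest had 0.344 RPM in the second E14.5 replicate, and the weakest of each other library had 0.541 to 0.692. These are the lowest listed peaks and not detection limits, since RPM also depends on peak width. The series text calls the replicates biological, and nothing in the labels says whether they came from separate animals or litters, so their spread may be partly technical.

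The 129 regions were called in 33 and 25 cases by the E12.5 replicates, in 82 and 81 by the E14.5 replicates, in 54 and 72 by the ISC replicates and in 37 and 61 by the enterocyte replicates. The E12.5 replicates thus called 25.6% and 19.4% of these regions, against 20.6% and 17.4% of all regions in the genome. For E14.5 the shares were 63.6% and 62.8%, against 63.1% and 63.2%, and for ISC 41.9% and 55.8%, against 40.8% and 56.5%. Enterocyte replicate 1 called 28.7% of these regions, against 34.4% of all regions in the genome, while enterocyte replicate 2 called 47.3% and 47.4%. Replicates matched about as often as elsewhere. Of the regions called in either enterocyte replicate, both called 44.1% in the 6 intervals and 51.1% in the genome, and for ISC the shares were 46.5% and 47.7%. The median score percentile of these peaks within their own list was 44.0 to 56.9 in 7 libraries and lower, 30.1, in enterocyte replicate 1. In that library they also had fewer tags (median 49.0, against 56.0 over all its peaks) and a lower fold enrichment as given by the authors (4.52 against 4.74). Its weak peaks move with the enterocyte absences described below, and their part in them was not tested.

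**Figure D1:**
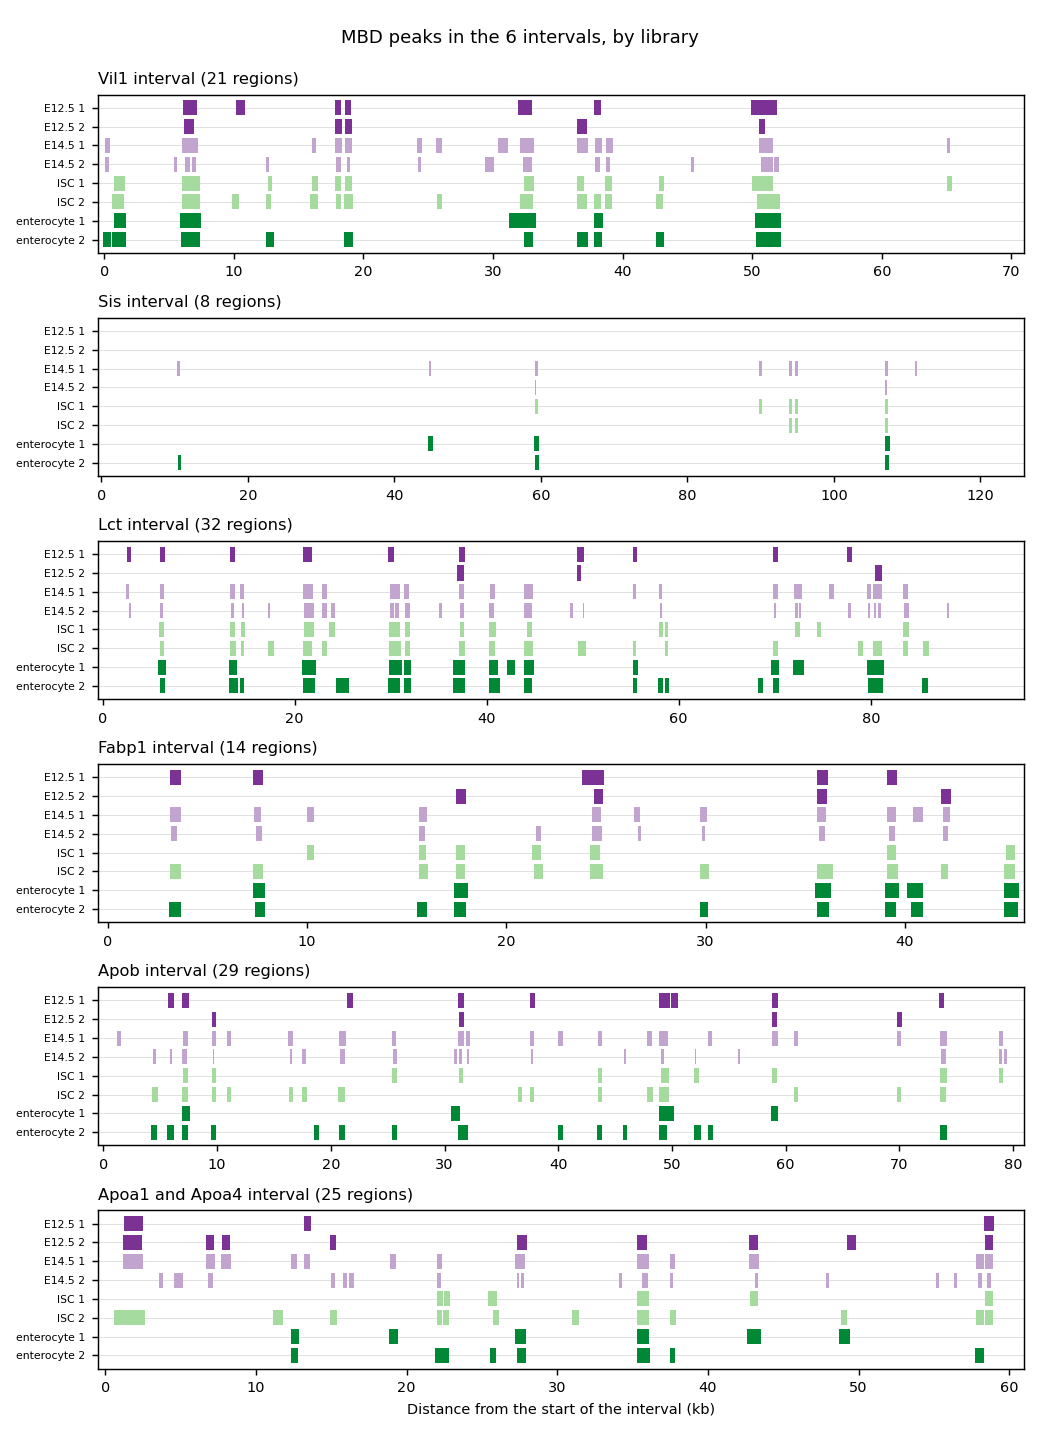
MBD peaks of the 8 libraries in the 6 intervals, drawn by distance from the start of each interval in kb, with 1 row per library and bars as long as the peaks. The Sis interval holds 8 regions and none in E12.5, and in the Fabp1 interval no enterocyte bar lies between the regions that start 17.4 and 29.7 kb from its start.

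Regions called in all 8 libraries numbered 3, or 2.33% of the 129, against 5.16% of all regions. They were 2 regions of the Vil1 interval and 1 of the Lct interval. Regions called in a single library numbered 30 (23.3%, against 28.1% of all regions), of which 10 lay in the Apoa1 and Apoa4 interval, 9 in Lct and none in Fabp1. The Sis interval had 6.40 regions per 100 kb, while the other 5 intervals had 30.0 to 41.7.

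Across the Vil1 interval (chr1:74435000-74505000), most libraries outside E12.5 had summed levels that overlapped. Its peaks summed to 9.79 and 4.94 RPM at E12.5, 21.0 and 17.8 at E14.5, 17.8 and 26.3 in ISC and 12.6 and 19.0 in enterocytes. Both E12.5 libraries were the lowest on this scale, and the other 3 groups overlapped. Scaled instead by the tags in regions called in all 8 libraries, the E12.5 mean rose from 7.37 ± 3.43 to 12.3 ± 4.66 (SD, n = 2), near the 13.3 ± 3.41 of enterocytes, so its low place depended on the scaling. In the paragraphs below, regions are numbered from the start of each interval and all levels are RPM. The 2 regions with the highest mean were also those called everywhere. Region 20 (chr1:74484944-74487267) held 3.48 and 0.758 at E12.5, 3.36 and 3.81 at E14.5, 3.58 and 5.47 in ISC and 3.97 and 4.55 in enterocytes. Region 4 (chr1:74440838-74442465) held 1.65 and 1.26, 2.84 and 2.12, 3.24 and 3.82, and 3.23 and 3.86 in the same order, so that every adult library was above every embryonic one.

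A region of the Vil1 interval was called in every library except the enterocytes. This was region 8 (chr1:74452757-74453348), which held 0.815 and 0.992 at E12.5, 1.36 and 1.58 at E14.5 and 0.925 and 0.763 in ISC, with no peak in either enterocyte library. Its summits in the 6 libraries all lay between positions 74452982 and 74453127. The authors' fold enrichment was highest in E14.5 replicate 2, at 21.2, which was also the highest of any of that library's peaks in the 6 intervals, and was 5.53 to 8.92 in the others. The ISC peaks were of middling strength, at percentiles 61.2 and 50.4 of their lists, and the 4 embryonic peaks were at 85.5 to 99.1. The nearest enterocyte peak, of 52 tags in replicate 2 (chr1:74453473-74454202), lay just beyond its end, in region 9 (chr1:74453473-74454239). That neighbour was called in 7 libraries, all but enterocyte replicate 1. Merging peaks within 500 bp joined both regions and ended the pattern.

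Other regions of the Vil1 interval also had peaks in the ISC replicates and none in enterocytes. Region 17 (chr1:74473565-74474187) held 1.04 and 1.23 at E14.5 and 1.30 and 1.43 in ISC and had no peak at E12.5 or in enterocytes. An enterocyte peak of 43 tags ended 78 bp before it, and an E12.5 peak of 42 tags 226 bp before it, so a neighbouring peak was close here too. Region 7 (chr1:74450911-74451515) held 1.08 and 1.30 in ISC and 0.781 in E14.5 replicate 1 and was called nowhere else, with its nearest enterocyte peak 1958 bp away. Region 10 (chr1:74459121-74459499) was called in the E14.5 libraries alone, with 0.781 and 0.688. Region 1 (chr1:74434908-74435509), with 0.839 and 0.573 at E14.5 and 1.1 in enterocyte replicate 2, had no ISC or E12.5 peak. Region 18 (chr1:74477590-74478166), with 0.679 and 1.08 in ISC and 0.945 in enterocyte replicate 2, had no embryonic peak.

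Region 2 of the Vil1 interval (chr1:74435592-74436668) had a peak in each of the 4 adult libraries and in none of the embryonic libraries. It held 1.82 and 2.10 in ISC and 1.27 and 2.02 in enterocytes. The peak of enterocyte replicate 1 was close to the caller's threshold, at percentile 0.822 of its list, and the others were at 54.0 to 80.9. Region 1, with peaks in both E14.5 libraries and in enterocyte replicate 2, lay beside it, and the nearest E14.5 peak ended 126 bp before it. The adult and E14.5 libraries thus had peaks on adjoining stretches at this end of the interval, and enterocyte replicate 2 had peaks on both.

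The Sis interval (chr3:72670000-72795000) was the barest of the 6. No E12.5 library had a peak in it, and the nearest was 76336 bp from region 7. The sums were 5.90 and 0.917 at E14.5, 3.82 and 2.58 in ISC and 2.65 and 2.27 in enterocytes, so the E14.5 replicates differed more from each other than the adult groups did. E14.5 replicate 1 was called at all 8 regions and replicate 2 at 2 of them. Region 7 (chr3:72776693-72777288) had the highest mean and was called in all 6 later libraries, with 0.781 and 0.487 at E14.5, 0.833 and 0.763 in ISC and 0.761 and 0.894 in enterocytes. Region 3 (chr3:72729138-72729827) held 0.694 and 0.430 at E14.5, 0.802 in ISC replicate 1 and 1.11 and 0.690 in enterocytes.

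The longest stretch of the Sis interval without a peak was 59.2 kb in ISC and 33.9 kb at E14.5. The ISC stretch held regions 1 and 2. Region 1 had a peak in enterocyte replicate 2 (0.690) and region 2 in enterocyte replicate 1 (0.784). A long stretch without a peak was thus not particular to enterocytes here. Between regions 3 and 7 lay 46.9 kb without an enterocyte peak. Inside it, regions 5 (chr3:72763896-72764341) and 6 (chr3:72764708-72765187) were called in both ISC libraries and in E14.5 replicate 1 only. Region 5 held 0.771 and 0.732 in ISC and 0.752 at E14.5, and region 6 held 0.802 and 1.08 in ISC and 0.984 at E14.5. The nearest enterocyte peaks were 12352 and 11506 bp away. All of these levels were above the weakest enterocyte peaks of the 6 intervals, 0.692 in replicate 1 and 0.588 in replicate 2, those of region 5 by a small margin. Whether such levels would have been called in enterocytes was not tested.

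The Lct interval (chr1:130160000-130255000) had the largest sums of the 6, 28.0 and 30.5 at E14.5, 19.9 and 31.1 in ISC and 22.2 and 29.3 in enterocytes, and these 3 groups overlapped. At E12.5 the sums were 8.65 and 3.34. Regions 10 (chr1:130189721-130191126) and 6 (chr1:130180814-130182199) had the highest means and were called in all libraries except E12.5 replicate 2. Region 10 held 2.60 and 3.41 at E14.5, 2.47 and 3.53 in ISC and 2.49 and 3.14 in enterocytes, against 1.09 in E12.5 replicate 1. Region 6 held 2.69 and 3.24, 2.50 and 2.51, and 2.75 and 2.53 in the same groups, against 1.30. Region 13 (chr1:130196535-130197780), called in all 8 libraries, held 0.996 and 1.33 at E12.5, 1.62 and 1.2 at E14.5, 1.30 and 1.84 in ISC and 1.68 and 2.58 in enterocytes, with the groups overlapping.

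Lct had the most regions of the 6 intervals, 32, and the most E14.5 gains over E12.5, 8 of the 22. Its 8 of 32 was near the 23.9% of all regions, so the count is not read as a trait of Lct. The strongest 2 outside the adult comparisons were called in all 6 later libraries. Region 14 (chr1:130200176-130201330) held 1.97 and 1.72 at E14.5, 2.13 in each ISC library and 1.73 and 2.94 in enterocytes. Region 16 (chr1:130203881-130204874) held 2.34 and 2.38 at E14.5, 1.23 and 2.58 in ISC and 1.82 and 1.76 in enterocytes. E12.5 peaks lay 2452 and 4516 bp from them.

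A smaller number of Lct regions separated the later groups. Region 30 (chr1:130243392-130243997) was called in both E14.5 libraries, with 1.19 and 1.49, and both ISC libraries, with 1.36 and 1.4, and in no E12.5 or enterocyte library. Its levels in the 4 libraries were all above the weakest enterocyte peaks, which are not a detection limit. The nearest enterocyte peak was 1260 bp away. Region 7 (chr1:130182825-130183370) held 1.39 and 1.58 at E14.5 and 1.46 in ISC replicate 2 and was called nowhere else. Region 1 (chr1:130162439-130162985) was called at E14.5, with 0.579 and 0.459, and in E12.5 replicate 1, with 0.543, and in no adult library. Region 21 (chr1:130218578-130218976), with 0.586 and 0.668 in ISC and 0.588 in enterocyte replicate 2, had no embryonic peak.

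At Fabp1 (chr6:71130000-71175000) a stretch of 11.6 kb, from 71148053 to 71159671, held no enterocyte peak, and the other groups had 3 regions inside it. The longest stretches without a peak were 5.51 kb at E14.5 and 5.47 kb in ISC, and 10.7 kb at E12.5. Sums over the interval were 4.60 and 2.74 at E12.5, 8.88 and 7.77 at E14.5, 6.26 and 11.7 in ISC and 5.72 and 8.71 in enterocytes, so the enterocyte sums lay within the range of the ISC sums or just below it.

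The strongest region inside that stretch was region 7 (chr6:71153771-71154896), which like the Vil1 region was called in all 6 libraries other than enterocytes. It held 1.67 and 0.703 at E12.5, 0.810 and 1.18 at E14.5 and 0.894 and 1.21 in ISC. The nearest enterocyte peak was 4776 bp away, so unlike the Vil1 region it had no enterocyte peak beside it. All 6 levels were above the weakest enterocyte peaks in the 6 intervals, the lowest of them, 0.703, by a small margin. The weakest listed peaks are not a detection limit, and whether such levels would have been called in enterocytes was not tested. Region 6 (chr6:71151346-71151839) held 0.956 and 0.891 in ISC and 0.545 in E14.5 replicate 2, and region 8 (chr6:71156446-71156762) held 0.579 and 0.401 at E14.5 alone. Past the stretch, region 13 (chr6:71171813-71172337) held 0.665 and 0.659 at E14.5, 0.740 in E12.5 replicate 2 and 0.795 in ISC replicate 2, with no enterocyte peak.

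The pattern of regions 8 at Vil1 and 7 at Fabp1, a peak in all 6 other libraries and in no enterocyte library, was counted after these values were seen. It was found at 2 of the 129 regions (1.55%) and at 422 of all 475861 (0.0887%). With the stricter 50% of each list, or under a rule that peaks cover 50% of a region, the Vil1 region alone had the pattern. With merging within 500 bp the Fabp1 region alone had it, and with lists held to the same length neither did.

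Other Fabp1 regions went the other way. Region 14 (chr6:71174953-71175711) was called in the 4 adult libraries, with 0.802 and 0.954 in ISC and 0.923 and 1.18 in enterocytes, and in no embryonic library, the nearest embryonic peak being 2616 bp away. It straddled the end of the interval, and its ISC peaks began 27 and 139 bp outside it, so it was a member only through its enterocyte peaks. Region 5 (chr6:71147358-71148052) held 1.14 and 0.732 in ISC and 0.877 and 0.971 in enterocytes and was absent at E14.5, though E12.5 replicate 2 had 0.577. Region 12 (chr6:71170089-71170906) held 1.02 in each enterocyte library and 0.955 in E14.5 replicate 1, with no ISC peak, and an ISC peak lay 469 bp away.

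The 2 Fabp1 regions with the highest means were called in 7 libraries each. Region 10 (chr6:71165518-71166364) held 0.688 and 0.721 at E12.5, 0.723 and 0.946 at E14.5, 1.49 in ISC replicate 2 and 1.18 and 1.2 in enterocytes. Region 11 (chr6:71168982-71169675) held 0.688 in E12.5 replicate 1, 1.07 and 0.889 at E14.5, 1.02 and 1.24 in ISC and 0.900 and 0.971 in enterocytes. Regions 4 (chr6:71145526-71146068) and 9 (chr6:71159653-71160123) were called at E14.5 and not at E12.5, with 0.955 and 0.917, and 0.781 and 0.430.

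**Figure D2:**
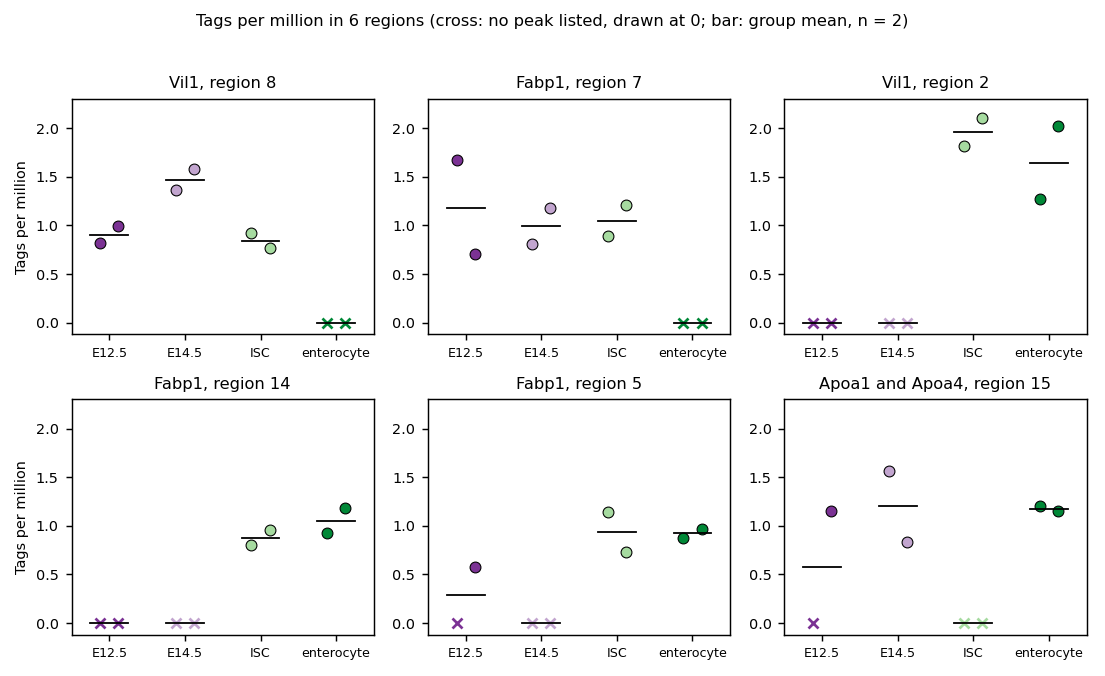
RPM (y axis) in the 8 libraries for 6 regions, grouped by stage or cell type on the x axis, with a cross at 0 where a library lists no peak and a bar at the group mean (n = 2). Region 8 at Vil1 and region 7 at Fabp1 have 6 points and 2 enterocyte crosses, while region 2 at Vil1 and region 14 at Fabp1 have points in the 4 adult libraries only.

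Apob (chr12:7965000-8045000) had many regions of low level, with a median length of 436 bp against 486 to 650 bp in the other intervals. The sums were 7.60 and 2.40 at E12.5, 18.9 and 12.4 at E14.5, 8.70 and 12.9 in ISC and 4.66 and 13.8 in enterocytes, and within each adult group the replicates differed by more than the means of the adult groups did. Region 20 (chr12:8013897-8015469) had the highest mean, with 2.35 in E12.5 replicate 1, 1.91 and 0.889 at E14.5, 1.48 and 1.69 in ISC and 1.89 and 1.25 in enterocytes. Region 13 (chr12:7995625-7997222) was called in all libraries except ISC replicate 2, with 0.760 and 0.595 at E12.5, 1.88 and 1.69 at E14.5, 0.555 in ISC replicate 1 and 0.969 and 1.30 in enterocytes.

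No Apob region separated ISC from E14.5 or from enterocytes in either direction. A peak at E14.5 and none in enterocytes was found at 3 regions, all weak. Region 7 (chr12:7981212-7981647) held 0.868 and 0.430, region 15 (chr12:8002523-8002946) held 0.752 and 0.487, and region 28 (chr12:8043805-8044124) held 0.550 and 0.602 at E14.5. Each also had a peak in 1 ISC library. Regions 10 (chr12:7985640-7986319), with 1.39 and 1.18 at E14.5, and 12 (chr12:7990408-7990841), with 0.781 and 0.831, lacked E12.5 peaks, but an E12.5 peak of 47 tags began 63 bp from region 10.

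In the Apoa1 and Apoa4 interval (chr9:46015000-46075000) the sums were 3.73 and 9.56 at E12.5, 16.7 and 13.9 at E14.5, 6.88 and 18.7 in ISC and 6.41 and 7.92 in enterocytes. Both E14.5 libraries were above both enterocyte libraries, and the ISC replicates spanned both groups. Region 15 (chr9:46042166-46042959) was the clearest of the regions with enterocyte and no ISC peaks. It held 1.56 and 0.831 at E14.5, 1.2 and 1.15 in enterocytes and 1.15 in E12.5 replicate 2, and the nearest ISC peak was 1063 bp away. A peak in both E14.5 and both enterocyte libraries and in neither ISC library was found at this region alone of the 129 (0.775%), against 0.536% of all regions.

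The ISC peak near it was that of region 14 (chr9:46040427-46041103), which held 1.36 and 0.922 in ISC and 0.690 in enterocyte replicate 2 and had no embryonic peak. Region 7 (chr9:46027263-46027841) held 0.969 and 0.971 in enterocytes and 0.926 in E14.5 replicate 1, with an ISC peak 444 bp away. Region 4 (chr9:46021651-46022249) held 1.30 and 0.917 at E14.5 and 0.992 in E12.5 replicate 2 and was absent from all adult libraries, the nearest adult peak being 3873 bp away. It lay in the first 12.3 kb of the interval, in which enterocytes had no peak and the other groups had 6 regions. Of these, regions 2, 3 and 6 were called in 1 library each. ISC replicate 1 had no peak there either, its first being in region 13, 22.0 kb from the start. The longest stretch without a peak was 11.9 kb at E12.5, 8.54 kb in ISC and 7.07 kb at E14.5. Region 1 (chr9:46015582-46017601) also lay in the first 12.3 kb and had the highest mean of the interval. It held 2.10 and 2.18 at E12.5, 3.47 in E14.5 replicate 1 and 6.17 in ISC replicate 2. The replicates of E14.5 and of ISC disagreed on it, since the other library of each group had no peak there. Region 25 (chr9:46072719-46073971), next in mean, was called in all libraries except enterocyte replicate 1, with 0.794 to 2.67. Regions 13 (chr9:46036915-46037883), with 0.665 and 0.573 at E14.5, and 19 (chr9:46052461-46052840), with 0.752 and 0.602, lacked E12.5 peaks.

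**Figure D3:**
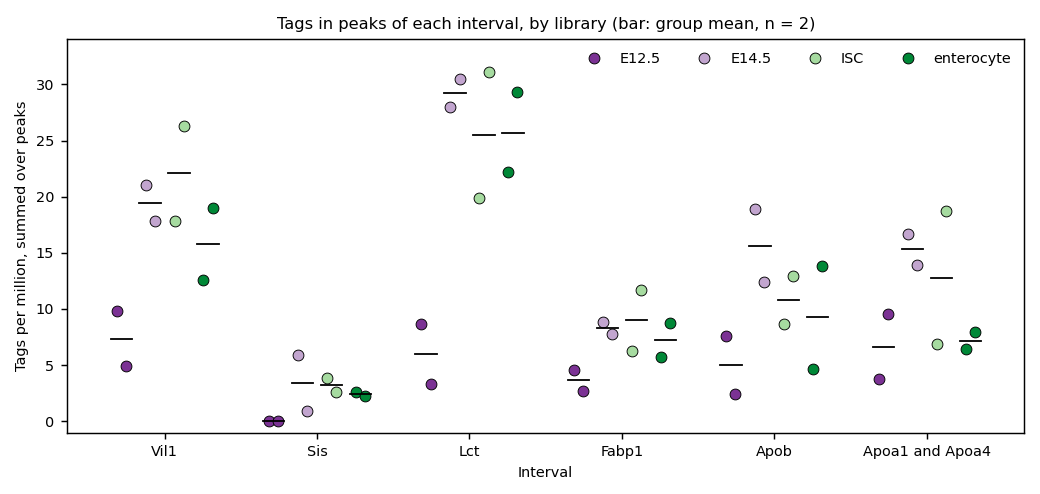
RPM summed over the peaks of each interval (y axis), with a point per library and a bar at the group mean (n = 2) for E12.5, E14.5, ISC and enterocytes from left to right. On this scale the E12.5 points are the lowest at Vil1, Sis (both 0), Lct and Fabp1. With the shared-region scaling the E12.5 mean is level with enterocytes at Fabp1 (6.14 and 6.08).

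Scaled by the tags in regions called in all 8 libraries, the E12.5 mean was still the lowest at Sis, at Lct and, by less than the spread of its replicates, at Vil1. At Lct the mean was then 9.90 ± 5.44 at E12.5 and 21.7 ± 3.54 in enterocytes (SD, n = 2). At Apob it was 8.21 ± 5.46 and 7.74 ± 5.26, and at Apoa1 and Apoa4 11.6 ± 8.08 and 6.05 ± 0.716, which turned the order of these groups in both intervals.

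Between E12.5 and E14.5 the embryonic epithelium had many more peaks at the later stage. Of the 129 regions, 22 had peaks in the E14.5 replicates and no E12.5 peak (17.1%), against 23.9% of all regions, and none had the opposite, against 0.276%. The 22 were 41.5% of the 53 regions that both E14.5 replicates had, against 54.7% in the genome. The low share of E12.5 tags in peaks moved with this difference, and its part in the result was not tested. When all lists were cut to the 84990 peaks of highest score, the counts were 2 for E14.5 (5.39% of all regions) and 4 for E12.5 (3.58% of all regions), out of 58 member regions. The genome kept its direction under this setting, and the member counts were too small to give one.

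For ISC and E14.5, 6 regions were called in ISC and not at E14.5 (4.65%, against 1.91% of all regions), and 6 the other way (4.65%, against 6.69%). The first were regions 2 and 18 at Vil1, 21 at Lct, 5 and 14 at Fabp1 and 14 at Apoa1 and Apoa4. The second were 1 and 10 at Vil1, 1 at Lct, 8 at Fabp1 and 4 and 15 at Apoa1 and Apoa4. With lists of equal length the counts were 4 and 0, beside 3.24% and 2.98% of all regions. With the top 50% of each list they were 2 and 4, beside 2.16% and 6.59%. Without region 14 at Fabp1, a member only through its enterocyte peaks, the first count was 5.

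Enterocytes descend from the stem cells, and 8 regions had peaks in the ISC replicates and none in enterocytes (6.20%, against 3.85% of all regions), 3 at Vil1, 2 at Sis, 1 at Lct and 2 at Fabp1. These were 20.0% of the 40 regions called in both ISC libraries, against 12.3% in the genome. Of the 8, regions 8 and 17 at Vil1, 30 at Lct and 7 at Fabp1 also had peaks in each E14.5 replicate, which made 4 of 129 (3.10%), against 1.64% of all regions. The reverse, a peak in enterocytes and none in ISC, was found at 3 regions (2.33%, against 1.28%), 1 at Fabp1 and 2 at Apoa1 and Apoa4. With 2 libraries on each side, no exact permutation p (two-sided) can fall below 0.333, so none was computed. A neighbouring peak was often near: 2 of the 8 and 2 of the 3 regions had a peak of the other group within 500 bp. The order of the counts depended on the libraries: without enterocyte replicate 1 they were 8 and 12 (5.84% and 7.03% of all regions), which turned it, and without enterocyte replicate 2 they were 22 and 6 (9.88% and 3.30%). Without ISC replicate 1 they were 27 and 5 (15.5% and 2.53%), and without ISC replicate 2 they were 14 and 9 (9.69% and 6.94%). With lists of equal length they were 4 and 2, while the genome turned to 2.31% and 2.88%.

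Set against E14.5, enterocytes lacked a peak at 13 regions called in both E14.5 libraries (10.1%, against 9.95% of all regions), a share near that of the genome. The opposite was found at 3 regions (2.33%, against 1.26%), region 2 at Vil1 and regions 5 and 14 at Fabp1. Under a rule of 50% coverage the counts were 9 and 5, beside 6.18% and 6.17% of all regions, so that the genome had no excess in either direction. With lists of equal length they were 2 and 1, beside 3.20% and 4.23%. Without region 14 at Fabp1 the second count was 2. These comparisons and those with ISC share libraries. Of all regions, 5.49% were called in the 6 later libraries and not at E12.5, against 4 of the 129 (3.10%), which were regions 11, 14 and 16 at Lct and 7 at Sis.

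**Figure D4:**
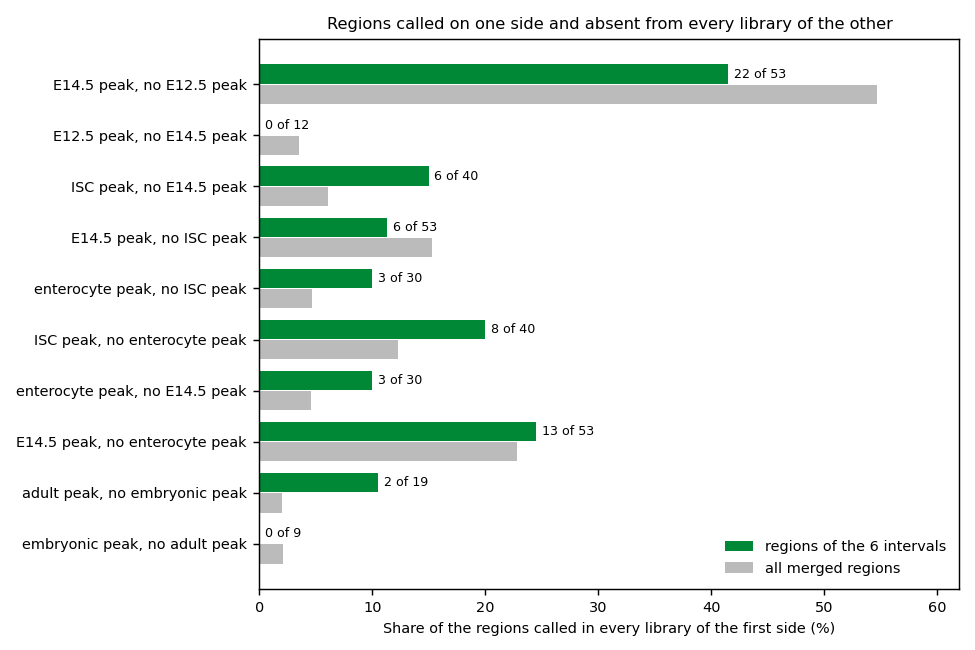
Share in percent of the regions called in every library of the first side that had no peak in any library of the other side, for the regions of the 6 intervals (green, with counts) and for all merged regions (grey). ISC regions without enterocyte peaks were 20.0% here and 12.3% in the genome, and E14.5 regions without enterocyte peaks 24.5% and 22.8%.

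Few regions were shared by the adult groups and missing from the embryo. With the 4 adult libraries set against the 4 embryonic ones, 2 regions were called on the adult side alone (1.55%, against 0.402% of all regions), region 2 at Vil1 and region 14 at Fabp1, and none on the embryonic side alone (against 0.139%). Region 14 was a member only through its enterocyte peaks, and without it the count was 1 of 128 (0.781%). The count fell to 0 with lists of equal length (0.638% of all regions) and with the top 50% of each list (0.469%), and under 50% coverage it was 2 beside 1.25%, so nothing about these intervals is read from it. RPM, taken as 0 where no peak was listed, were compared on all 475861 regions by exact permutation (two-sided) over the 35 ways to part the libraries. At an unadjusted p under 0.05, 4 of the 129 regions were higher in adults (3.10%, against 3.17% of all regions) and none was lower (against 0.160%), so the share of higher regions was close to that of the genome. Without region 14 at Fabp1 it was 3 of 128 (2.34%). The 4 were regions 2 and 4 at Vil1 and 5 and 14 at Fabp1. Each had an exact permutation p of 0.0286, the smallest this design allows, and an adjusted p of 0.858 (Benjamini-Hochberg over all regions), so no region of the 129 or of the genome passed after adjustment. At region 4 of Vil1, which was called everywhere, the mean was 3.54 in adults and 1.97 in embryos, a difference of 1.57 RPM. At the other 3 the difference was 1.8, 0.786 and 0.964 RPM and rested on embryonic libraries without a peak.

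Regions 2 at Vil1 and 14 at Fabp1 had an unadjusted exact permutation p under 0.05 in each of the 8 fits that left out 1 library. With peaks in every adult library and 0 in every embryonic one, this outcome was fixed in advance and gives no support. With lists of equal length both lost the call, and the regions higher in adults were 4 and 20 at Vil1. Region 4 at Vil1 and region 5 at Fabp1 had an unadjusted exact permutation p under 0.05 only when the library left out was embryonic. Scaling by the tags in regions called in all 8 libraries, which hold 2.81% and 3.21% of the E12.5 tags and 4.94% to 6.66% of the others, ended the call of region 5 and made region 8 of Vil1 and region 13 of Apob lower in adults. The test treats E12.5 and E14.5, and ISC and enterocytes, as exchangeable within their side.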

How the data were processed

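Per the labels' protocols, the DNA was fragmented (150-250 bp) before MethylMiner capture of methylated fragments. The submitters' processing notes name the build mm9 and bcl2fastq 1.8.4, Bowtie 1.1.2 and SAMtools 1.2. MACS 1.4.2 called peaks in each library alone, per the file headers, with a p cutoff of 1e-05 and no control. The tag counts per peak are the authors' deposited counts, not normalized. The deposited score rises as the caller's p-value falls and was used to rank peaks within a list. The fold enrichment over the local background is the authors' ratio, as deposited.

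Peaks were merged at 1 bp overlap, and merged regions overlapping the 6 intervals were the members, including 2 ISC peaks just outside. RPM divides the tags of a library's peaks in a region by the total tags in its file header, times 1000000, with tags of several peaks in a region added. These values depend on peak width, and the median width was 272 to 849 bp. A region was counted for a group when every library of it had a peak and no library of the compared group did, with no test. The permutation test ran on all regions with Benjamini-Hochberg adjustment and was checked on simulated data (Python 3.11.15, NumPy 2.4.6, pandas 2.3.3). Alternatives were lists of equal length, the top 50% by score, 50% coverage, merging within 500 bp, scaling by shared regions, a minimum of 4 libraries, a replicate block and leaving out each library.

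Regions were named when they separated the groups of any comparison involving ISC, enterocytes or adults (27 regions), when called in all 8 libraries, or when among the 2 highest mean RPM of an interval. Of the 14 that separated only E14.5 from E12.5, the 2 highest per interval were named. The members, lists and tests were chosen with earlier results of these data known. RefSeq sequences and gene order are on GRCm38.p6 and positions were not converted, so exons, introns and promoters were not assigned to peaks.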

Additional observations from a re-analysis of the deposited data

How the results depend on the processing

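Counts of member regions were small and moved easily. Percentages in brackets are shares of all regions under the same setting throughout. With lists of equal length (58 member regions in place of 129), 2 were called at E14.5 and not at E12.5 (5.39%) and 4 the reverse (3.58%). For E14.5 the count was 0 against ISC (2.98%) and 2 against enterocytes (3.20%). For ISC and not enterocytes it was 4 (2.31%), and for enterocytes and not E14.5 it was 1 (4.23%). For adults and not embryos it was 0 (0.638%), and for all but enterocytes 0 (0.100%). By the permutation test 2 were higher in adults (3.20%). With the top 50% of each list (78 regions), the counts were 13 for E14.5 and not E12.5 (20.1%) and 1 for the reverse (0.378%). They were 2 for ISC and not E14.5 (2.16%) and 5 for ISC and not enterocytes (3.70%). For enterocytes they were 1 against ISC (1.53%) and 0 against E14.5 (1.68%). For adults and not embryos the count was 0 (0.469%), and for all but enterocytes 1 (0.0820%). With 50% coverage the counts were 14 for E14.5 and not E12.5 (10.2%) and 2 for the reverse (0.674%). They were 3 for E14.5 and not ISC (3.89%), 5 for enterocytes and not E14.5 (6.17%) and 1 for all but enterocytes (0.0345%). With merging within 500 bp (106 regions) they were 5 for ISC and not enterocytes (3.87%) and 1 for enterocytes and not ISC (1.23%). They were 1 for adults and not embryos (0.371%) and 1 for all but enterocytes (0.100%). Leaving out region 14 at Fabp1, an alternative chosen after seeing the data, left 1 region for adults and not embryos (0.402%). Scaling by shared regions made 2 regions lower in adults (0.511%). Shorter lists and wider merging leave fewer regions by construction; otherwise the cause was not tested.

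The count of regions in all but enterocytes was added after seeing the data. The presence counts have no test and so no block. Replicate numbers did not pair the libraries: over the 24563 regions called in all 8, the deviations of same-numbered libraries correlated at -0.0170 to 0.0670. With the replicate number as a block, 0 regions were higher in adults, because the smallest exact permutation p is then 0.0556. Requiring 4 libraries left the permutation counts at 4 higher (7.36%, up from 3.17%) and 0 lower (0.370%, up from 0.160%).

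Leaving out 1 library loosens the rule for its group by construction. E14.5 and not E12.5 gave 22 to 46 regions. The counts were 46 (44.3%) and 44 (43.7%) without E14.5 replicate 1 or 2, and 38 (31.8%) without E12.5 replicate 1. The reverse gave 0 to 2, with 2 without E12.5 replicate 1 (2.09%), E12.5 replicate 2 (2.64%) or E14.5 replicate 1 (0.874%). Without E14.5 replicate 2 it gave 1 (0.631%). E14.5 and not ISC gave 6 to 25, with 25 (19.6%) and 19 (18.2%) without E14.5 replicate 1 or 2. Without ISC replicate 1 or 2 it gave 13 (9.74%) and 19 (17.7%). ISC and not E14.5 gave 6 to 13, with 13 (8.23%) without ISC replicate 1 and 11 (5.62%) without E14.5 replicate 1. ISC and not enterocytes gave 8 to 27, with 27 (15.5%) and 14 (9.69%) without ISC replicate 1 or 2. Without enterocyte replicate 2 it gave 22 (9.88%). The reverse gave 3 to 12, with 12 (7.03%) and 6 (3.30%) without enterocyte replicate 1 or 2. Without ISC replicate 1 or 2 it gave 5 (2.53%) and 9 (6.94%). E14.5 and not enterocytes gave 13 to 36, with 36 (25.4%) and 31 (24.2%) without E14.5 replicate 1 or 2. Without enterocyte replicate 2 it gave 28 (19.0%). The reverse gave 3 to 10, with 10 (5.71%) and 5 (2.77%) without enterocyte replicate 1 or 2. Without E14.5 replicate 1 it gave 6 (4.10%). Adults and not embryos gave 2 to 5, with 5 (0.850%) without enterocyte replicate 1. The reverse gave 0 to 1, with 1 without E12.5 replicate 1 (0.437%) or 2 (0.510%). All but enterocytes gave 2 to 4, with 4 (0.431%) without enterocyte replicate 2. Regions higher in adults numbered 2 to 8 (8 without E14.5 replicate 1, 2 without ISC replicate 2 or enterocyte replicate 2) and lower 0 to 1 (1 without E12.5 replicate 1 or 2 or ISC replicate 1).

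Summed RPM by interval and group moved beyond 1 SD in 7 of 24 cases with the shared-region scaling. The weakest peak in these intervals, 0.344 to 0.692 RPM by library, did not follow depth. It was highest in enterocyte replicate 1, deeper than both ISC and both E14.5 libraries.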
